A study of Mus musculus with 24 samples.

Results

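Antisense transcripts named after a host gene carry the host's symbol with the ending os, for opposite strand, and sometimes a number. The count table held 51912 genes, of which 319 had a symbol of that form. For 296 of them the rest of the symbol was itself a gene in the table, here called the host. The 114 transcripts described here are those with a mean of at least 0.1 CPM (a gene's share of all counts of its library, scaled to a common total) over all 24 libraries. The other 182 were below that floor, and 51 of those had no count in any library. The members nearest the floor were Prss23os at a mean of 0.109 CPM and Dmrta2os at 0.1005 CPM, and the nearest below it were Fmr1os at 0.0929 CPM and Usp46os1 at 0.0914 CPM. The 114 transcripts have 106 hosts, since 8 hosts have 2 members each.

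RNA was sequenced from 12 mice of the C57BL/6J strain, of both sexes, with the dorsal and the ventral hippocampus taken apart. The fathers (sires) had received nicotine or saline, and the labels name no treatment of the offspring themselves. The 24 libraries form 8 groups of 3: nicotine-sired or saline-sired, male or female, dorsal or ventral, with replicates A, B and C. The labels give no ages. By the titles, each animal gave both regions. The number in the library titles differs between the 4 combinations of sire treatment and sex, so what it marks cannot be told apart from those groups. The sires were treated, and the 3 libraries of a group may share a sire, so the p-values measure the spread between libraries. Library totals ranged from 32049770 to 47486547 counts. Excitatory neuron markers summed to at least 4666 CPM in every library. Choroid plexus markers varied most, from 165.7 to 7838 CPM.

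An antisense transcript is read from the opposite DNA strand of another gene, its host. Some start at the host's own promoter and run away from it, some cross the host's exons, and some lie inside a host intron. A few are known to act on their host: Dlx6os1 (Evf2) regulates the interneuron homeobox genes Dlx5 and Dlx6, and mouse Uchl1os raises translation of the Uchl1 mRNA. Most have no known role, and several members named in this way are protein-coding genes. In bulk RNA, fewer cells of a type and less RNA per cell cannot be told apart.

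The library kit keeps the strand of the mRNA, but which tool counted the reads, and with which strand setting, is not given in the sources used here. Without strand, reads from a gene and its antisense partner cannot be told apart, so every value below for a member that crosses host exons carries that limit. Separately from host overlap, 13 members share exon sequence on their own strand with another gene of the annotation and are uncertain for that reason, and some of them cross host exons as well. Among the members named below these are Dlx6os1, Tmem147os, Tomm6os, Zeb2os and Rab26os.

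Of the 114 members, the GENCODE M21 annotation (GRCm38) lists 91 as antisense, 7 as lincRNA, 5 as processed transcripts, 2 as bidirectional promoter transcripts and 7 as protein-coding. The protein-coding members are Chd3os, Wdr83os, Slc7a6os, Cebpzos, Ccpg1os, Toporsos and Fancd2os. By position, 45 stand head to head with the host, 27 are nested in it, 11 are tail to tail and 5 span it. A further 20 are divergent and 6 convergent with no overlap of the gene bodies. An exon lies opposite a host exon in 79 of 114, and 48 start within 1000 bp of the host's start. The median member has 1618 exonic bases.

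Stretches of exon from 4 members show how these transcripts cross their hosts, and they are shown because these 4 had the smallest p-values in the ventral hippocampus of males. Capitals mark bases opposite host coding sequence. Lower case marks up to 30 bases on either side, which lie opposite host introns. All are 5′ to 3′ along the antisense transcript, from GENCODE M21 on GRCm38. Chn1os3 lies at chr2:73614632-73614797 (+), Grin1os at chr2:25297340-25297512 (+), Rapgef4os2 at chr2:72224931-72225079 (-) and Kcnmb4os1 at chr10:116418241-116418436 (+).
Chn1os3: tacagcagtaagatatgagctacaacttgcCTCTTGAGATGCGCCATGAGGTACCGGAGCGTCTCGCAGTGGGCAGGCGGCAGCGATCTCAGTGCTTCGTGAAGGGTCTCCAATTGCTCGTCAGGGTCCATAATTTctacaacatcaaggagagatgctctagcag
Grin1os: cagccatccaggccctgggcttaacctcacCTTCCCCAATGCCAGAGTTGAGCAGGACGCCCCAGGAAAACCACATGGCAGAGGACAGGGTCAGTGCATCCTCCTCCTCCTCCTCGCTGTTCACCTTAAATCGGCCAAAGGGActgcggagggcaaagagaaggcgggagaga
Rapgef4os2: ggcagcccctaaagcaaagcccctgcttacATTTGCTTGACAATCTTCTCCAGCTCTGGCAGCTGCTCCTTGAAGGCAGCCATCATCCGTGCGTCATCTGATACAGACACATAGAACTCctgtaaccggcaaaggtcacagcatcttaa
Kcnmb4os1: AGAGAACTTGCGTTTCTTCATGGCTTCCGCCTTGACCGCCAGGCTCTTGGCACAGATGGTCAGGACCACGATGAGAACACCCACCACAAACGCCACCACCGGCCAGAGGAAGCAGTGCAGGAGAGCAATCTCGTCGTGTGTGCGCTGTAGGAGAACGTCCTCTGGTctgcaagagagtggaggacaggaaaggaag

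The capitals of Chn1os3 cover a whole coding exon of Chn1 (106 bases), those of Grin1os one of Grin1 (113 bases) and those of Rapgef4os2 one of Rapgef4 (89 bases). In Kcnmb4os1 they cover 166 coding bases of Kcnmb4, and the bases before them, opposite untranslated host sequence, are left out. The reverse complement of the capitals was found in 8 Chn1, 8 Grin1, 4 Rapgef4 and 1 Kcnmb4 transcript. The reverse complement of the whole stretch, lower case included, was found in 0 host transcripts. In each of the 4 the capitals are followed by ct, the reverse complement of the ag that ends a host intron. In Grin1os and Rapgef4os2 they are preceded by ac, opposite the gt that opens the next host intron, and in Chn1os3 by gc. These antisense exons run on past the ends of the host exon into sequence opposite its introns.

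Levels of the members spanned a wide range. The highest mean was 77.2 CPM for Chd3os, a coding gene that GENCODE calls Rnf227. It was followed by Wdr83os (34.2 CPM), Cep83os (23.1 CPM), Dlx6os1 (14.4 CPM), Rab10os (12.8 CPM) and Slc7a6os (12.3 CPM). Only 8 members reached 10 CPM and 35 reached 1 CPM, and 88 had a count in all 24 libraries. For the median member this was 15.7 counts per library.

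Between genes, levels are compared per kb of exon. The median member stood at 8.80% of its host's CPM per kb, with a range from 0.0605% to 11600%. The level was above the host's in 16 members and under 1% of it in 17. Brip1os, which starts 177 bp upstream of the DNA repair helicase gene Brip1 and runs away from it, was the highest relative to its host. Brip1os had 1.62 CPM per kb and Brip1 had 0.0140 CPM per kb. Epb41l4aos (1568% of its host), Lppos (741%) and Wdr83os (641%) followed. At the other end, Uchl1os stood at 0.176 CPM per kb against 292 CPM per kb for Uchl1, a ubiquitin hydrolase abundant in neurons, although 295 of its exonic bases lie opposite Uchl1 exons. By position, median levels relative to the host were 16.3% for divergent, 8.07% for head to head, 8.71% for tail to tail and 1.70% for nested members.

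**Figure D1:**
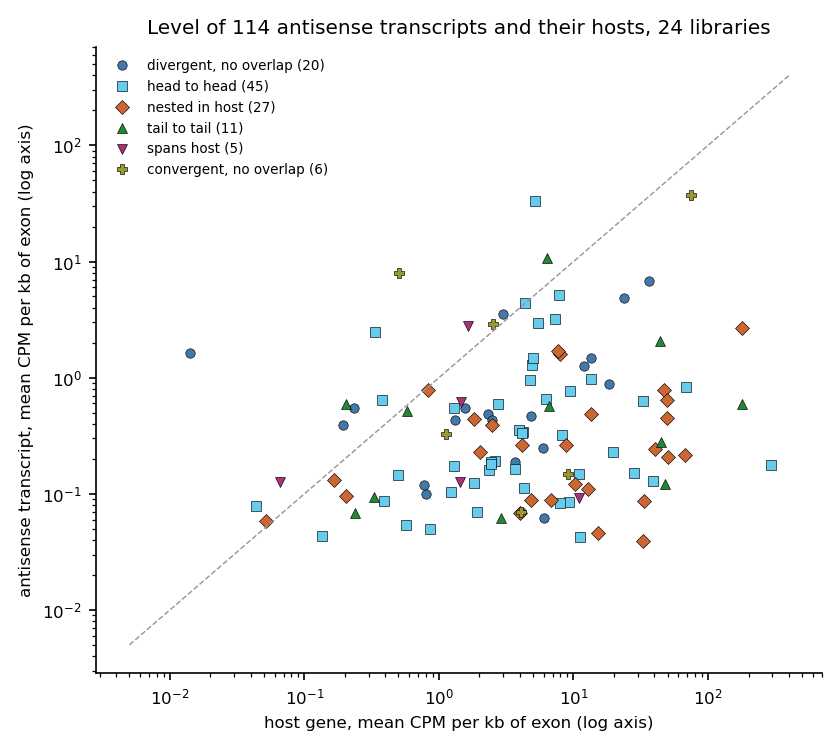
Mean level per kb of exon of each of the 114 antisense transcripts (vertical, log axis) against its host (horizontal, log axis) over 24 libraries. Symbols give the position relative to the host, and the dashed line marks equal levels. Most points lie below the line, and 16 lie above it.

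Of the 6 most abundant members, 4 were never called in a comparison of sire treatment or region. Wdr83os, which encodes a small membrane protein, ranged from 29.0 to 37.5 CPM in the 12 dorsal and from 31.3 to 39.1 CPM in the 12 ventral libraries. Slc7a6os ranged from 11.4 to 13.6 CPM and from 11.04 to 14.01 CPM. Cep83os, which starts 78 bp upstream of the centrosome gene Cep83 and runs away from it, ranged from 19.5 to 27.2 CPM and from 22.05 to 29.04 CPM. Rab10os ranged from 9.16 to 14.97 CPM and from 11.5 to 14.7 CPM. The ranges of the regions overlap in each of these 4 members. Chd3os and Dlx6os1 are described below.

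The main comparison asked whether antisense levels depend on the sire's treatment, in each sex and region. In the ventral hippocampus of males, 9 of the 87 members tested rose and 0 fell. They lie opposite Grin1, Chn1 (2 members), Rapgef4, Kcnmb4, Bcas1, Fam219a, Atcay and Uchl1. Over all 19224 genes tested in ventral males, 3.21% were called in either direction and 1.82% were called higher. The test was edgeR's quasi-likelihood test, Benjamini-Hochberg adjusted over all genes tested, and a gene was called at an adjusted p under 0.05. Genes tested are those that passed a low-count filter, which left out some of the 114 members. Fold changes are log2 values of nicotine-sired over saline-sired, with the standard error (SE) and 3 libraries a group.

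Grin1os lies on chromosome 2 from 25291220 to 25298925, nested in Grin1, which encodes the obligatory subunit of the NMDA receptor. In ventral males its level was 5.86, 3.90 and 6.23 CPM in nicotine-sired libraries A, B and C. In saline-sired libraries it was 0.551, 0.856 and 0.300 CPM. The groups do not overlap. The log2 fold change was 3.23 ± 0.41 (SE, adjusted p = 0.00101). Of its exonic bases, 1307 lie opposite Grin1 exons and 1184 opposite Grin1 coding sequence, the most of the 9.

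Chn1os3 and Chn1os1 both lie opposite Chn1, which encodes alpha-chimaerin, a GTPase-activating protein for Rac that shapes axons and dendrites. Chn1os3 (chromosome 2, 73596526 to 73616012) is tail to tail with Chn1, and Chn1os1 (73658270 to 73660263) is nested in it. Chn1os3 was at 4.14, 3.12 and 4.69 CPM in nicotine-sired and at 0.436, 0.624 and 0.2455 CPM in saline-sired ventral males. Chn1os1 was at 4.22, 2.13 and 4.81 CPM against 0.597, 0.879 and 0.191 CPM. All nicotine-sired values of both transcripts are above all saline-sired ones. The log2 fold changes were 3.20 ± 0.37 (adjusted p = 0.000349) and 2.74 ± 0.42 (adjusted p = 0.00298). Since both share a host, they are not independent sites.

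Rapgef4os2 (chromosome 2, 72224688 to 72232302) is nested in Rapgef4, the gene of the cAMP-activated exchange factor Epac2. It was at 1.31, 1.24 and 1.29 CPM in nicotine-sired and at 0.0918, 0.185 and 0.0546 CPM in saline-sired ventral males, a change of 3.502 ± 0.54 (adjusted p = 0.00245). Kcnmb4os1 (chromosome 10, 116418052 to 116421237) is nested in Kcnmb4, which encodes a beta subunit of the large-conductance potassium channel. It was at 0.960, 0.8002 and 1.39 CPM against 0.184, 0.162 and 0.0273 CPM, a change of 3.03 ± 0.47 (adjusted p = 0.00248). Neither transcript overlapped between the groups. The counts behind them are low, 38 to 59 reads in each nicotine-sired and 1 to 8 in each saline-sired library. Rapgef4os2 had 0 to 17 reads in ventral females, and its place among the members tested depended on the nicotine-sired males.

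Bcas1os1 (chromosome 2, 170405181 to 170407175) is nested in Bcas1, a gene of young myelinating oligodendrocytes. It was at 1.06, 0.969 and 1.37 CPM in nicotine-sired and at 0.184, 0.370 and 0.2455 CPM in saline-sired ventral males, a change of 2.105 ± 0.37 (adjusted p = 0.00613). The summed oligodendrocyte markers were 3030 to 3224 CPM and 3040 to 3191 CPM in the same groups. Fam219aos (chromosome 4, 41517437 to 41518929) is tail to tail with Fam219a and was at 0.732, 0.274 and 1.001 CPM against 0.0918, 0.0231 and 0.0546 CPM (3.51 ± 0.70, adjusted p = 0.0121). It rested on 13 to 41 reads in nicotine-sired and 1 to 4 reads in saline-sired libraries. Ventral females held 0 to 9 reads of Fam219aos, so its place among the members tested depended on the nicotine-sired males.

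Atcayos (chromosome 10, 81194609 to 81210877) is tail to tail with Atcay, the gene of the neuronal protein caytaxin. It was at 0.934, 1.31 and 0.928 CPM in nicotine-sired and at 0.115, 0.463 and 0.0818 CPM in saline-sired ventral males (2.255 ± 0.56, adjusted p = 0.0421). Uchl1os (chromosome 5, 66626495 to 66676498) is head to head with Uchl1 and was at 1.16, 0.863 and 0.806 CPM against 0.115, 0.393 and 0.436 CPM (1.62 ± 0.41, adjusted p = 0.0452). The nicotine-sired libraries were above the saline-sired ones in each of Bcas1os1, Fam219aos, Atcayos and Uchl1os. The calls of Atcayos and Uchl1os depended on single libraries. In 12 refits without 1 library, the call stood in 5 for Atcayos, in 2 for Uchl1os and in 9 for Fam219aos. For the rest of the 9 transcripts it stood in all 12.

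**Figure D2:**
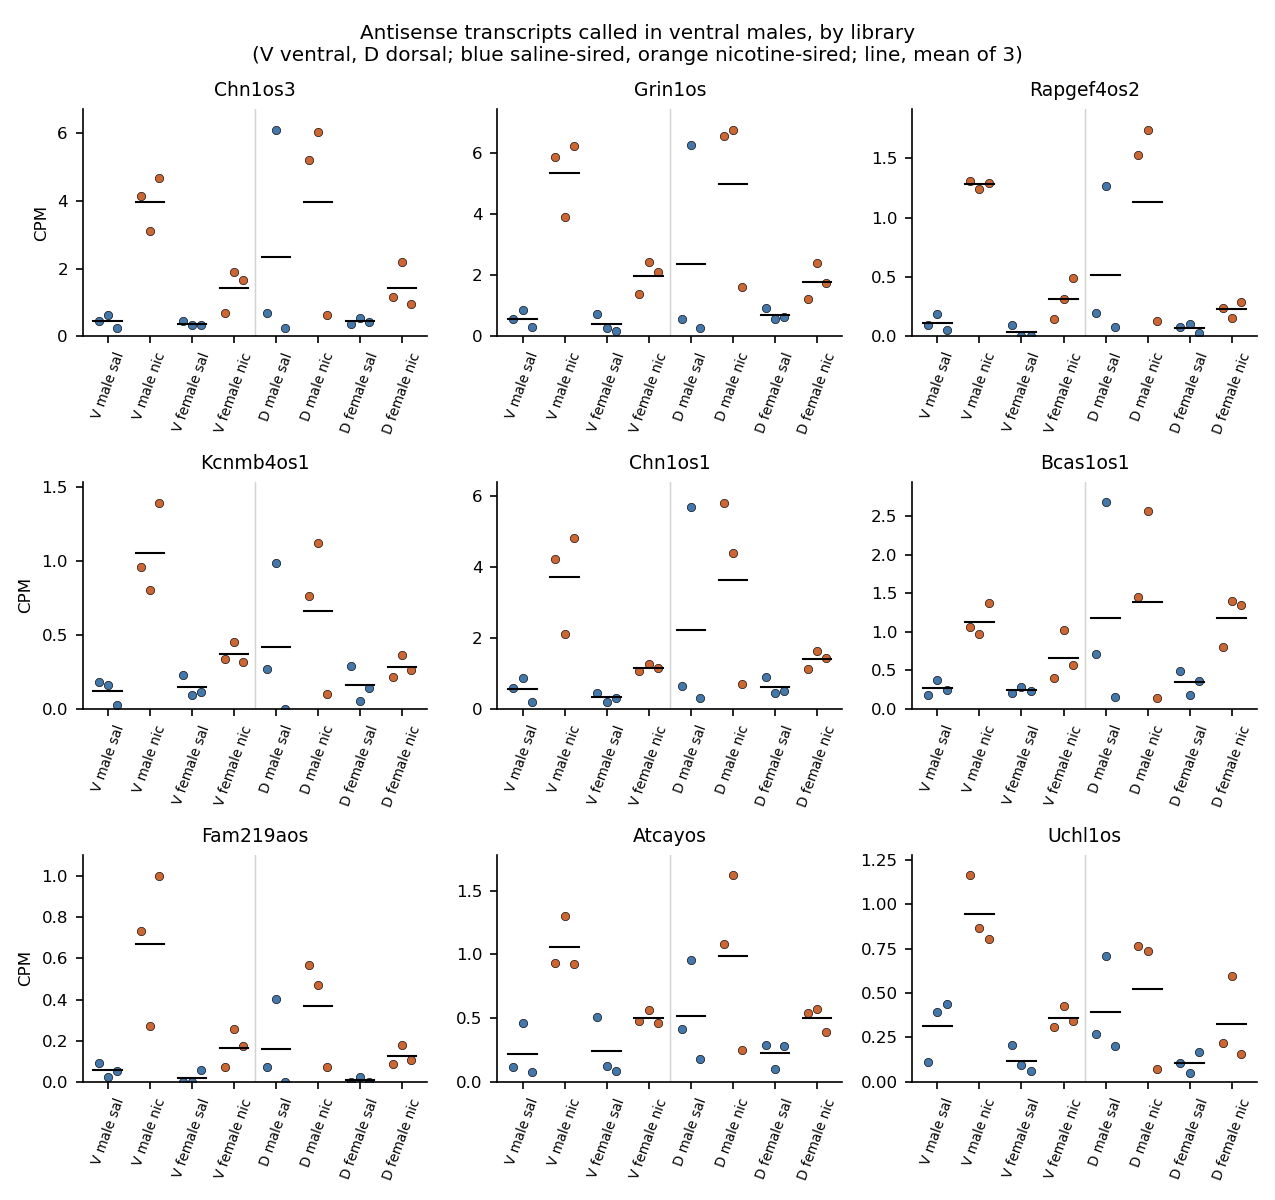
CPM (vertical) of the 9 antisense transcripts called in ventral males, in each library of the 8 groups (horizontal). Points are libraries A, B and C from left to right, blue saline-sired and orange nicotine-sired, and lines are group means. In ventral males the nicotine-sired points lie above the saline-sired ones in every panel, and in dorsal males saline-sired library B stands with nicotine-sired libraries A and B.

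The hosts did not move with them. The 8 hosts of the 9 transcripts had log2 fold changes between -0.173 and 0.168 in ventral males, and edgeR and DESeq2 called 0 of them, with 1 (Uchl1) at an unadjusted p under 0.05. Grin1 was at 446, 386 and 422 CPM in nicotine-sired and at 453, 401 and 443 CPM in saline-sired ventral males (-0.02 ± 0.08). Chn1 was at 1030, 914 and 1039 CPM against 1030, 992 and 1032 CPM (0.00 ± 0.08). A second test took the log2 ratio of antisense to host counts in each library, which does not depend on library scaling. It was fitted with limma over 1730 pairs of genes on opposite strands, with the adjustment over all pairs. These are a noncoding and a coding gene with overlapping gene bodies, plus the members' own pairs. Some of the members' pairs have a coding member or gene bodies that do not overlap, so the other pairs are not fully alike. In ventral males the ratio rose in 11 of 113 member pairs and fell in 0. Of all pairs, those of members included, 14.3% were called in either direction and 13.5% were called higher, so the members' share is no higher than that of all pairs. The 11 are the 9 above with Prss23os (3.52 ± 0.83, adjusted p = 0.0102) and Mypopos (2.15 ± 0.58, adjusted p = 0.0224), both under the low-count filter of the gene test. Prss23os had 14, 8 and 10 reads in nicotine-sired and 0, 4 and 0 in saline-sired ventral males, so its ratio leans on the added 0.5. Its mean of 0.109 CPM is near the 0.1 CPM floor and includes these high libraries, so its call is no separate evidence. Mypopos had 15, 8 and 19 reads against 2, 4 and 3.

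**Figure D3:**
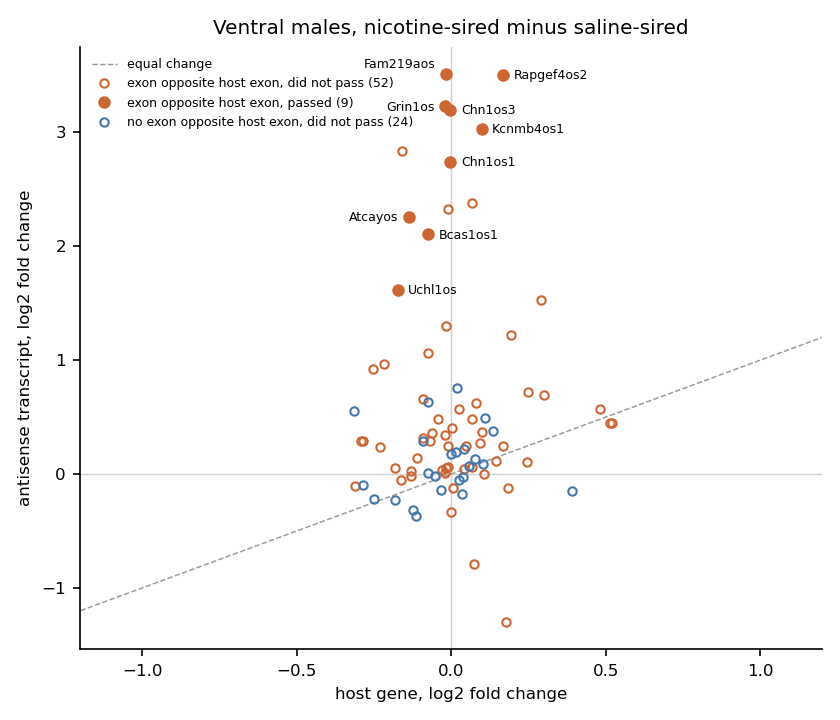
Log2 fold change in ventral males of 85 antisense transcripts (vertical) against that of the host (horizontal), nicotine-sired minus saline-sired. Filled points passed the test at an adjusted p of 0.05, and colours mark whether an exon lies opposite a host exon. The 9 filled points stand between 1.62 and 3.51 on the vertical axis and near 0 on the horizontal axis.

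All 9 members that rose have exon opposite host exon, as do 62 of the 87 tested. By position 5 of the 9 are nested in the host, 3 are tail to tail and 1 is head to head. Of the 62 tested members with exon opposite a host exon, 54 had a positive fold change and the median was 0.35. Of the 25 without such exon, edgeR and DESeq2 called 0, with 1 at an unadjusted p under 0.05, 13 were positive and the median was 0.01. Exon opposite host coding sequence was present in 41 tested members, of which 8 were called (median 0.45). With exon opposite host exon and a host mean of at least 50 CPM, 8 of 29 members were called (median 0.97), against 1 of 33 with a lower host (median 0.25). Over all members tested the median was 0.25 and 77.0% were positive, against 0.01 and 51.9% over all genes tested. The difference between these classes was not tested.

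Non-overlap between the groups was counted as well. Every nicotine-sired library was above every saline-sired one in 20 of 87 members in ventral males, or 23.0%, against 9.08% of all genes tested. The reverse held in 3 members (3.45%), against 12.1% of all genes tested. In ventral females the first held in 14 members (16.1%, against 8.85% of all genes tested) and the reverse in 8 (9.20%, against 11% of all genes tested). In dorsal males it held in 10 of 91 (against 7.69%) and the reverse in 4 (against 18.9%), and in dorsal females in 14 (against 9.55%) and 4 (against 7.89%).

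The 9 transcripts moved together with the antisense level of other genes. In each library the summed counts of 1017 noncoding genes that are not members were taken as a percentage of the summed counts of the 843 coding genes opposite them. This antisense percentage was 0.332% to 0.399% in nicotine-sired ventral males and 0.199% to 0.241% in saline-sired ones. In ventral females this percentage was 0.240% to 0.281% in nicotine-sired and 0.210% to 0.230% in saline-sired libraries. With the log2 of that percentage as a covariate, 0 members were called in ventral males, 6 of the 9 fold changes were positive and their median was 0.61. Chn1os1, Bcas1os1 and Fam219aos then stood at -0.08, -0.09 and -0.09. The percentage does not overlap between these groups, so the fit can hardly tell it apart from sire treatment. Standard errors rose with it, from 0.37 to 0.75 for Chn1os3 and from 0.54 to 1.45 for Rapgef4os2. The lost calls and changed signs therefore decide nothing about the members. With the same covariate, 9 of 9 fold changes were positive in ventral females (median 1.09) and 8 of 9 in dorsal females (median 0.58), with 0 called in either. The percentage does not overlap between the sire groups of females in either region, so the same limit holds there. Olfactory and vomeronasal receptor genes, 1434 genes that brain is not known to express, summed to 24.1 to 27.0 CPM in nicotine-sired and 20.9 to 26.1 CPM in saline-sired ventral males. Among the markers of other cells, those called higher in ventral males were Aqp4 (1 of 5 astrocyte markers), Opalin (1 of 5 oligodendrocyte markers), P2ry12 and Cx3cr1 (2 of 5 microglial markers), Slco1a4 (1 of 4 endothelial markers) and Hba-a1 and Hba-a2 (2 of 5 blood markers). Blood markers summed to 404.8 to 444.1 CPM in nicotine-sired and 289.6 to 352.7 CPM in saline-sired ventral males, and endothelial markers to 141.7 to 147.9 CPM and 131 to 139.6 CPM. The sums of astrocyte, oligodendrocyte and microglial markers overlapped between the groups. Of 6 excitatory neuron, 6 interneuron and 12 choroid plexus markers, 0 were called by edgeR or DESeq2 in ventral males, with 0 at an unadjusted p under 0.05. The part of these cells in the result was not tested.

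In dorsal males the same 9 transcripts split the libraries, but not by sire treatment. Their summed level was 23.7 and 25.4 CPM in nicotine-sired males A and B and 3.70 CPM in C. It was 25.0 CPM in saline-sired male B, and 3.85 and 1.39 CPM in saline-sired males A and C. The antisense percentage of the other genes followed the same split: 0.353%, 0.373% and 0.221% in nicotine-sired males A, B and C and 0.358% in saline-sired male B. In ventral libraries the summed level of the 9 was 20.4, 14.6 and 22.5 CPM in nicotine-sired males and 2.36, 3.95 and 1.64 CPM in saline-sired males. So 3 dorsal male libraries, 1 of them saline-sired, had a level near that of the nicotine-sired ventral males. In dorsal females the summed level of the 9 was 5.61, 9.49 and 6.70 CPM in nicotine-sired and 3.42, 2.05 and 2.53 CPM in saline-sired libraries, and these groups do not overlap.

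In dorsal males 1 of 91 members was called, Dlx6os1, described below, against 1.78% of all genes tested. The 9 had positive fold changes from 0.27 to 1.25, and 0 of them passed with edgeR or DESeq2 or reached an unadjusted p under 0.05. The fold changes of the 9 depended on single libraries. Without saline-sired male B, which was high in the 9, they ranged from 1.19 to 3.65 with a median of 2.96, and Grin1os passed at 3.65 ± 0.65 (adjusted p = 0.0464). Larger values were bound to follow from leaving out a saline-sired library high in the same 9, so this pass is no separate evidence. The share of all genes called in that refit is not given here. Without saline-sired male C the 9 ranged from -0.251 to 0.675 (median 0.26) and without saline-sired male A from -0.0015 to 0.898 (median 0.45). Without nicotine-sired male A, B or C the medians were 0.58, 0.42 and 1.31, and in these 5 other refits 0 of the 9 passed. Grin1os with all libraries was at 1.12 ± 0.96 (adjusted p = 0.584). Of the other members in dorsal males, the smallest p-values were those of Fcnaos (1.54 ± 0.53, adjusted p = 0.166) and Cpeb1os1 (0.37 ± 0.15, adjusted p = 0.230), which did not pass. The ratio test called 0 of 113 member pairs in dorsal males, with 8 at an unadjusted p under 0.05 and 0.0578% of all pairs called.

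**Figure D4:**
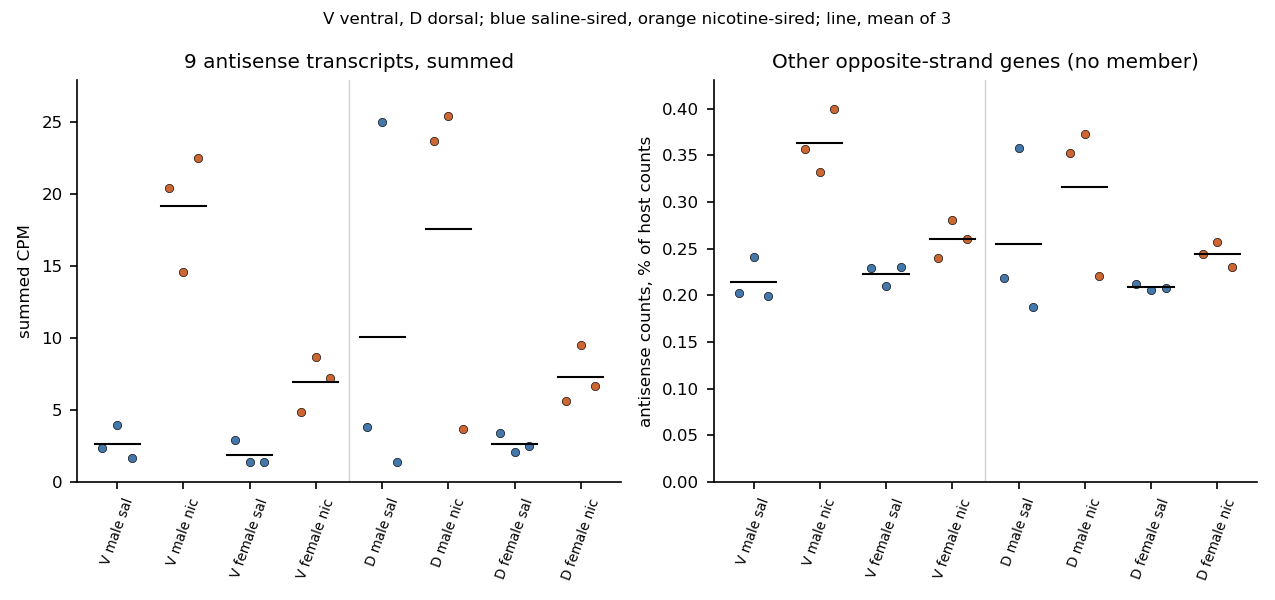
Left, summed CPM of the 9 antisense transcripts in each library. Right, counts of 1017 other noncoding genes as a percentage of the counts of the coding genes opposite them. Points are libraries A, B and C from left to right, blue saline-sired and orange nicotine-sired, and lines are group means. In both panels nicotine-sired ventral males, dorsal nicotine-sired males A and B and dorsal saline-sired male B are the highest.

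In ventral females 0 of 87 members passed edgeR's test, with 18 at an unadjusted p under 0.05 and 4 called by DESeq2. Of all genes tested, 0.0312% were called by edgeR and 13.9% were at an unadjusted p under 0.05. The 4 called by DESeq2 are Grin1os, Rapgef4os2, Chn1os3 and Chn1os1. The share of all genes that DESeq2 called is not given here, so this count has no background beside it. In this comparison all 12 choroid plexus markers were at an unadjusted p under 0.05 and 9 were called by DESeq2 and 0 by edgeR, with sums of 276.9 to 2861 CPM in nicotine-sired and 177.3 to 322.4 CPM in saline-sired ventral females. DESeq2 also called 5 of 5 blood markers (414.3 to 490 CPM against 287.1 to 373.4 CPM) and 2 of 5 oligodendrocyte markers. The part of these cells in the values of the members was not tested. The 3 members with the smallest p did not pass. Grin1os was at 1.365, 2.44 and 2.09 CPM in nicotine-sired and at 0.719, 0.250 and 0.176 CPM in saline-sired ventral females (2.29 ± 0.45, adjusted p = 0.0961). Chn1os3 had a fold change of 1.90 ± 0.40 (adjusted p = 0.108), and the 9 transcripts were positive throughout, from 0.975 to 3.00. By ratio to the host, Grin1os (2.63 ± 0.48, adjusted p = 0.0282) and Rapgef4os2 (3.29 ± 0.70, adjusted p = 0.0403) rose in ventral females, 2 of 113 member pairs against 0.694% of all pairs. Rapgef4os2 had 6, 11 and 17 reads in nicotine-sired and 4, 0 and 0 in saline-sired ventral females, so its ratio leans on the 0.5 added to the counts. In 12 refits without 1 library, the ratio call stood in 8 for Grin1os and in 5 for Rapgef4os2.

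Sp3os was the third of these in ventral females, in the opposite direction. It stands head to head with Sp3, a gene of a widely expressed transcription factor that binds GC-rich promoters. Its level was 3.76, 4.45 and 4.27 CPM in nicotine-sired and 6.145, 5.77 and 5.49 CPM in saline-sired ventral females. In dorsal females it was 3.499, 3.45 and 4.19 CPM against 5.175, 5.76 and 5.34 CPM. The groups do not overlap in either region, and the fold changes were -0.48 ± 0.12 (adjusted p = 0.151) and -0.56 ± 0.15 (adjusted p = 0.200), neither past the threshold. In males the values were 0.25 ± 0.12 (ventral) and 0.06 ± 0.15 (dorsal), also not passed. Sp3 itself was at 0.22 ± 0.11 and 0.07 ± 0.10 in ventral and dorsal females. Relative to Sp3, Sp3os was at -0.70 ± 0.16 in ventral females (ratio adjusted p = 0.0533).

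In dorsal females 0 of 91 members passed edgeR's test, with 10 at an unadjusted p under 0.05, 0 called by DESeq2 and 0.0314% of all genes tested called (0.0105% higher, 0.0209% lower). Of all genes tested, 13.3% were at an unadjusted p under 0.05 in dorsal females. The 9 transcripts of the ventral males were all positive there, from 0.783 to 3.38 with a median of 1.54, against a median of 0.80 in dorsal males. Besides Sp3os the smallest p-values were those of Dlx4os (2.505 ± 0.71, adjusted p = 0.207) and Spag17os (-1.56 ± 0.47, adjusted p = 0.228). Spag17, a gene of motile cilia, was at 2.04 ± 0.60 in dorsal females, the opposite sign, and did not pass either. The ratio test called 0 of 113 member pairs in dorsal females, with 9 at an unadjusted p under 0.05 and 0.116% of all pairs called.

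Averaged over the sexes, 8 of 87 members rose in the ventral hippocampus and 0 fell, against 1.75% of all genes tested called in either direction and 1.10% called higher. They are the 9 above without Atcayos (1.615 ± 0.41, adjusted p = 0.0670). Chn1os3 (2.55 ± 0.27) and Grin1os (2.76 ± 0.30) led by p. In the dorsal hippocampus over both sexes 0 of 91 passed edgeR's test, with 7 at an unadjusted p under 0.05, 0 called by DESeq2 and 0.0784% of all genes tested called (0.0261% higher, 0.0523% lower). Of all genes tested, 10.8% were at an unadjusted p under 0.05 in that comparison. The smallest p-values there were those of Dlx6os1 (-0.32 ± 0.10), Fcnaos (1.12 ± 0.37) and Ptgs2os (0.70 ± 0.27). For the 9 transcripts the difference between the male and the female fold change was not called by edgeR or DESeq2 in either region. In the ventral hippocampus all 9 differences (male minus female) were positive, from 0.124 to 1.78, with 2 at an unadjusted p under 0.05. In the dorsal hippocampus all 9 were negative, from -2.13 to -0.0914, with 0 at an unadjusted p under 0.05.

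Dlx6os1 was called in the dorsal hippocampus of males, and was lower there. It spans Dlx6 on chromosome 6 (6820189 to 6871592), with 0 exonic bases opposite Dlx6 exons, and stood at 171% of the Dlx6 level per kb. In dorsal males it was at 13.0, 10.3 and 8.51 CPM in nicotine-sired and at 22.7, 16.05 and 17.3 CPM in saline-sired libraries. The groups do not overlap, and it fell by 0.76 ± 0.15 on the log2 scale (adjusted p = 0.0249). Dlx6 was at 3.62, 3.804 and 2.48 CPM against 8.11, 3.437 and 3.385 CPM, a change of -0.53 ± 0.31 that did not pass (adjusted p = 0.402). In ventral males, Dlx6os1 was at 16.4, 11.9 and 13.0 CPM against 17.5, 20.9 and 13.7 CPM, and these groups overlap.

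Interneuron markers are given beside this result because Dlx6os1 is an interneuron transcript. The sum of Gad1, Gad2, Slc32a1, Sst, Pvalb and Vip was 515.8 to 737.6 CPM in nicotine-sired and 731.5 to 882.7 CPM in saline-sired dorsal males, and these ranges overlap. Of the 6 markers edgeR called 0 and DESeq2 2, with 3 at an unadjusted p under 0.05. Their part in the result was not tested. The call of Dlx6os1 was lost without nicotine-sired male B or C or saline-sired male A or C, and stood without the other dorsal libraries.

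The male and the female fold change differed for 1 member in each region. In the dorsal hippocampus this was Dlx6os1, with a difference of -0.88 ± 0.20 (male minus female, adjusted p = 0.0468), 1 of 91 members against 2.24% of all genes tested (0.847% with a positive and 1.39% with a negative difference). Dorsal females were at 13.45, 14.6 and 16.1 CPM (nicotine-sired) and 14.6, 12.6 and 13.1 CPM (saline-sired). That difference passed in 2 of 12 refits without 1 library, those without nicotine-sired male A or nicotine-sired female A. Interneuron markers differed in the same comparison, with 2 of 6 called by edgeR, both negative, and 2 by DESeq2. Their median difference was -0.658, against -0.0178 over all genes tested, and 3 were at an unadjusted p under 0.05. Their part in the difference of Dlx6os1 was not tested. In the ventral hippocampus the member was Abhd11os, at 3.08 ± 0.66 (adjusted p = 0.0415), 1 of 87 members against 1.07% of all genes tested (0.51% with a positive and 0.557% with a negative difference). Abhd11os is a transcribed pseudogene tail to tail with the hydrolase gene Abhd11. It was at 0.227, 0.295 and 0.366 CPM in nicotine-sired and 0.0918, 0.139 and 0.136 CPM in saline-sired ventral males. In ventral females the order was reversed, with 0.0718, 0.170 and 0.115 CPM against 0.417, 0.250 and 0.558 CPM. These are 3 to 19 reads a library. The call held in only 2 of 12 refits without 1 library, those without nicotine-sired male A or saline-sired female B. Next by p, and not passed, were Sp3os (0.73 ± 0.17) and Tomm6os (0.86 ± 0.21) in the ventral and Dlx4os (-4.07 ± 1.09) and Cpeb1os1 (0.75 ± 0.21) in the dorsal hippocampus.

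In ventral males 3 of 103 hosts tested passed, a share close to the 3.21% of all genes tested. Rbm3, the cold-inducible RNA-binding protein gene, was at 67.7, 72.8 and 69.9 CPM in nicotine-sired and at 33.3, 37.3 and 31.45 CPM in saline-sired ventral males (1.075 ± 0.12, adjusted p = 0.0002933). Its antisense member Rbm3os was at a mean of 0.145 CPM and under the count filter, and by ratio to Rbm3 it was at -0.25 ± 0.59. Frmpd1 fell by 0.61 ± 0.10 (adjusted p = 0.005124) and Prosc by 0.25 ± 0.06 (adjusted p = 0.0395), with Frmpd1os under the filter and Proscos at 0.92 ± 0.48 (adjusted p = 0.382). In the dorsal hippocampus Rbm3 was at 76.6, 81.9 and 75.4 CPM in nicotine-sired and 38.4, 41.0 and 36.5 CPM in saline-sired males, and rose by 1.07 ± 0.09. In dorsal females it was at 35.6, 42.7 and 37.5 CPM against 59.1, 72.9 and 63.5 CPM, and fell by 0.77 ± 0.09. The groups do not overlap in either sex, and their order is opposite.

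The regions were compared over all groups. Ventral minus dorsal over all 24 libraries, 16 of 99 members were called, 9 higher and 7 lower in the ventral hippocampus, against 29.2% of all genes tested (14.3% higher and 14.9% lower). The members' share of 16 in 99 is below that background. Of their hosts, 45 of 104 tested were called, 17 higher and 28 lower. Cell markers differed between the regions too: 10 of 12 choroid plexus markers (median -2.13), 5 of 5 oligodendrocyte markers (median -0.81) and 5 of 6 excitatory neuron markers (median -0.45) were lower in the ventral hippocampus. Of interneuron markers 3 of 6 and of astrocyte markers 2 of 5 were higher, and 1 of 5 microglial markers was lower. Their part in the differences below was not tested.

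Prox1os starts inside Prox1, whose homeobox protein marks dentate granule cells, and stands head to head with it. Prox1os ranged from 2.24 to 4.41 CPM in dorsal libraries (median 3.49) and from 1.58 to 2.67 CPM in ventral libraries (median 1.87). Prox1 ranged from 43.0 to 105.4 CPM and from 26.45 to 62.8 CPM, and both ranges overlap between the regions. The fold changes were nearly equal, at -0.78 ± 0.12 for Prox1os (adjusted p = 5.58e-05) and -0.80 ± 0.18 for Prox1 (adjusted p = 0.00243). The difference in ratio was 0.05 ± 0.14.

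Emx2os stands head to head with Emx2, a cortical patterning gene. It ranged from 5.51 to 9.69 CPM in dorsal and 3.77 to 6.08 CPM in ventral libraries. It fell by 0.59 ± 0.10 (adjusted p = 0.000130) and Emx2 by 0.25 ± 0.07 (adjusted p = 0.00892). Here the antisense transcript fell by more than the host, with a ratio difference of -0.34 ± 0.09 (limma adjusted p = 0.0187). Six3os1, beside the forebrain gene Six3, fell by 2.21 ± 0.45 and Six3 by 1.47 ± 0.42, both called. Saline-sired male A was the highest dorsal library, at 2.79 CPM for Six3os1 and 3.75 CPM for Six3, and nicotine-sired female B came next, at 1.815 and 2.67 CPM. These 2 libraries also had the most RNA of Ttr, the leading choroid plexus gene, at 5280 CPM each.

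Ptgs2os starts 68 bp upstream of Ptgs2, the activity-induced cyclooxygenase gene, and runs away from it. It ranged from 0.2205 to 0.596 CPM in dorsal and from 0.0624 to 0.303 CPM in ventral libraries. Ptgs2os fell by 1.16 ± 0.21 (adjusted p = 0.000223) and Ptgs2 by 0.68 ± 0.11 (adjusted p = 9.72e-05), and their ratio did not pass (-0.45 ± 0.24, adjusted p = 0.308). Kcnd3os rose with the potassium channel gene Kcnd3 by nearly the same amount, 0.58 ± 0.17 and 0.52 ± 0.05. Chd3os, with medians of 63.9 CPM in dorsal and 88.8 CPM in ventral libraries, rose by 0.37 ± 0.07 and the chromatin remodeller gene Chd3 by 0.25 ± 0.05.

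Other members differed between the regions where the host did not pass. Abhd11os was lower in the ventral hippocampus by 1.46 ± 0.26 (adjusted p = 0.000243) and Abhd11 stood at 0.13 ± 0.05 (adjusted p = 0.0520). Abhd11os ranged from 0.2225 to 1.04 CPM in dorsal and from 0.0718 to 0.558 CPM in ventral libraries. Lrp8os2, nested in the reelin receptor gene Lrp8, was higher by 1.795 ± 0.38 (adjusted p = 0.00109), and Lrp8 stood at -0.02 ± 0.04. Lrp8os2 ranged from 0 to 0.306 CPM in dorsal and from 0.138 to 1.03 CPM in ventral libraries. Mccc1os (0.44 ± 0.11), Zfp85os (0.31 ± 0.08), Cebpzos (0.16 ± 0.05) and Tomm6os (0.28 ± 0.10) and Tmem147os (0.18 ± 0.07) were higher and Sap30bpos (-1.20 ± 0.33) was lower, each with a host that did not pass. The rest of the 16 were Zmiz1os1 (0.89 ± 0.26, Zmiz1 0.14 ± 0.05) and Frmpd1os (-2.585 ± 0.83, Frmpd1 -0.15 ± 0.06), and both hosts were called. Frmpd1os rests on few reads, with 0 to 37 in a dorsal library and 0 to 8 in a ventral library.

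By ratio to the host, 13 of 113 member pairs differed between the regions, 7 higher and 6 lower in the ventral hippocampus, against 8.21% of all pairs (5.26% higher and 2.95% lower). The smallest p was that of Rab26os (-0.92 ± 0.16, adjusted p = 0.000438), where the vesicle GTPase gene Rab26 rose by 0.81 and Rab26os stood at -0.10. It was followed by Abhd11os (-1.45 ± 0.26) and Lrp8os2 (1.92 ± 0.41). Epb41l4aos (-0.80 ± 0.18), Zeb2os (0.53 ± 0.12) and Mccc1os (0.54 ± 0.13) came next. In Epb41l4aos and Zeb2os it was the host that was called and not the member.

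**Figure D5:**
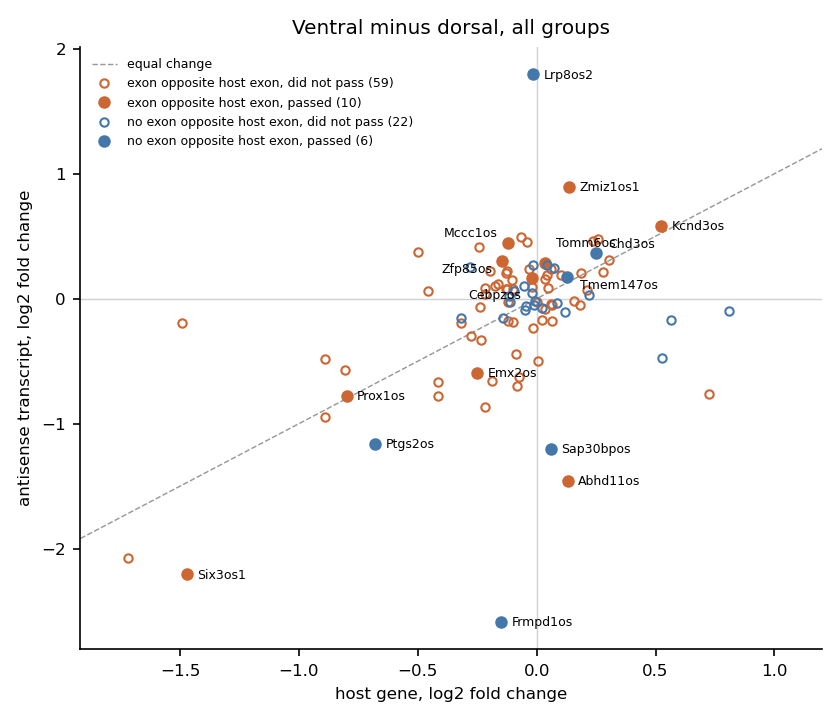
Log2 fold change, ventral minus dorsal over all 24 libraries, of 97 antisense transcripts (vertical) against that of the host (horizontal). Filled points passed the test at an adjusted p of 0.05, colours mark exon opposite host exon, and the dashed line marks equal change. Prox1os, Kcnd3os and Chd3os lie near the line, and Abhd11os, Sap30bpos and Lrp8os2 lie far from it.

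Of the 9 transcripts of the ventral males, edgeR called 0 between the regions, with 1 at an unadjusted p under 0.05 and 1 called by DESeq2. Their fold changes ranged from -0.95 to 0.215, and 4 of their 8 hosts were called.

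Genes of the machinery that ends, degrades or edits such transcripts were mostly not called in the comparisons of sire treatment. The nuclear RNA exosome and its adaptors degrade unstable noncoding RNA. Of 18 such genes, edgeR and DESeq2 called 0 in each sex and region, with 2 at an unadjusted p under 0.05 in ventral males and 4 in dorsal males (medians -0.05 and -0.07). Of 18 genes of transcription termination and 3′ end formation, 1 was lower in ventral males and 1 in dorsal males, and both times it was Srrt. Over all genes tested 1.39% were lower in ventral and 1.31% in dorsal males. Of the 18, 4 and 7 were at an unadjusted p under 0.05, and DESeq2 called 1 and 3. Of all genes tested, 15.8% in ventral and 17.6% in dorsal males were at an unadjusted p under 0.05. Srrt (Ars2) joins the nuclear cap-binding complex to transcription termination and RNA decay. It fell by 0.45 ± 0.06 in ventral males (edgeR adjusted p = 0.000931) and by 0.43 ± 0.07 in dorsal males (edgeR adjusted p = 0.00754). Srrt was named after its values were seen.

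Of 18 genes of double-stranded RNA processing, such as the editing and Dicer enzymes, edgeR called 0 in each sex and region, with 3 at an unadjusted p under 0.05 in ventral males and 4 in dorsal males. DESeq2 called 3 of these in dorsal males and 0 in the others. Of 14 long noncoding RNAs not named after a host, such as Malat1 and Meg3, edgeR called 0 in each sex and region, with medians of 0.15 in ventral males and -0.26 in ventral females. There were 2 and 7 at an unadjusted p under 0.05, against 15.8% and 13.9% of all genes tested, and DESeq2 called 0 and 2. Ventral minus dorsal, edgeR called 3 of the 18 exosome genes lower, and 1 higher and 1 lower of the 18 termination genes. Of the 18 double-stranded RNA genes it called 3 higher and 4 lower, and of the 14 noncoding RNAs 1 higher and 5 lower. Of all genes tested, 14.3% were higher and 14.9% lower in the ventral hippocampus.

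RefSeq promoter sequences (GRCm38.p6, from 250 bases before to 50 after the start) were at hand for 71 members, 5 of them among the 9. The letters CCAAT, searched on both strands, were in 36.6% of member promoters and 37.9% of all 27025 promoters, and in 0 of the 5. The letters GGGCGG were in 45.1% of member and 35.9% of all promoters, and TATAAA in 7.0% and 14.2%. The letters CACGTG were in 14.1% and 7.2%, and TGACGTCA in 0 member promoters and 1.9% of all. Among the 5, Atcayos held GGGCGG and TATAAA and Uchl1os held CACGTG. A match is a description of the letters only.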

How the data were processed

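RNA was extracted with an AllPrep DNA/RNA kit and libraries were made with a TruSeq Stranded mRNA kit and read single-end on a HiSeq2500, per the labels' protocols. The authors deposited 1 table of whole-number counts per gene for 24 libraries, not normalized. The counting step, with its strand setting and annotation, is not given in the sources used here. TopHat2 2.1.0 and Cuffdiff 2.2.1.3, with Cufflinks, are listed without a role in the submitters' processing notes, as are mm10 and GRCm38. Of 51912 gene identifiers, 51719 were found in GENCODE M21, which gave positions, biotypes and exons, and 0 columns belonged to no sample.

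Library totals of 32049770 to 47486547 counts limit the precision of members with few reads. The main test was the quasi-likelihood test of edgeR 4.0.16 (R 4.3.3) with TMM scaling, filterByExpr and a robust fit. It was fitted per region on 12 libraries with 4 group means, or on all 24 libraries for ventral minus dorsal. Antisense-to-host log2 ratios, with 0.5 added to both counts, were tested with limma 3.58.1. Adjustment ran over all genes or pairs tested, at 0.05. Alternatives included DESeq2 1.42.0, no low-count filter, other scaling, covariates, a replicate block and leaving out libraries. Both tests were tested on simulated data. Each animal, named in the titles, gave 1 dorsal and 1 ventral library, and the 12 pairs deviated together with a median correlation of 0.29 (-0.13 to 0.73, 8 over 0.1).

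The members and gene lists were chosen with earlier results of these data known. Named in full are the 6 most abundant members, up to 10 called members a direction and comparison by smallest p, the 3 smallest p-values where fewer than 3 passed, their hosts, and up to 6 called ratios a comparison.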

Additional observations from a re-analysis of the deposited data

Results flagged for a closer look

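The sire-treatment difference differed between males and females, by the interaction test of edgeR with adjustment over all genes tested, for 2 antisense members and 4 hosts. In the ventral hippocampus these were 1 of 87 members and 2 of 103 hosts, against 1.07% of all genes tested. In the dorsal hippocampus they were 1 of 91 members and 4 of 104 hosts, against 2.24%. The members' share was near that background in the ventral and below it in the dorsal hippocampus. Values are the male log2 fold change minus the female one. In the ventral hippocampus Abhd11os stood at 3.08, with both groups of each sex apart in opposite directions. Among hosts, Rbm3 stood at 1.74 in the ventral and 1.84 in the dorsal hippocampus, and Hopx, a homeodomain gene, at 0.77 and 0.82. In the dorsal hippocampus Dlx6os1 stood at -0.88, Lrp8 at -0.51 and Spag17 at -3.47.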

How the results depend on the processing

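Chn1os1, Bcas1os1 and Fam219aos changed sign in ventral males with the antisense percentage of other genes as a covariate, at -0.0781, -0.0912 and -0.0909. Their standard errors were then 0.872, 0.870 and 2.14. That percentage does not overlap between the sire groups of ventral males, so the fit can hardly tell it apart from sire treatment. Under that covariate 0 members were called in ventral males, in ventral libraries over both sexes, for the sex difference in either region and in dorsal males. With the spread of all 24 libraries, 2 members were called in ventral males, 3 over both sexes and 5 for the dorsal sex difference. With the choroid plexus marker level as covariate, 4 were called in ventral libraries over both sexes and 0 for the sex difference in either region. DESeq2, which ran without edgeR's low-count filter, called 4 in ventral females, 13 over both sexes (11 of them among the 87 members that edgeR tested) and 2 for the ventral sex difference. Without a low-count filter 2 were called in ventral females, and the non-robust fit called 0 for the dorsal sex difference. Of members with a mean of at least 0.5 CPM, 5 were called in ventral males, 4 over both sexes, 0 for the ventral sex difference and 9 between regions. By ratio to the host, that minimum left 5 in ventral males and 8 between regions. In ventral females a pseudocount of 2 and array quality weights each gave 4 ratios, and the weights gave 2 in dorsal females. The cause of these changes was not tested. For these settings, and for the refits and blocks below, the share of all genes called is not given here. A change in the members therefore cannot be told apart from a change over all genes.

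Leaving out 1 library gave 6 to 10 called members in ventral males, 0 to 2 in ventral females, 6 to 10 over both sexes and 0 to 1 for the ventral sex difference. It gave 0 to 2 in dorsal males, 0 in dorsal females and over both sexes, and 0 to 3 for the dorsal sex difference. Leaving out 1 animal gave 14 to 18 between regions. Ratios gave 7 to 13 in ventral males, 0 to 6 in ventral females, 0 to 1 in dorsal males and in dorsal females, and 7 to 13 between regions.

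The letters A, B and C do not pair libraries across sire treatments: 5 of 12 same-letter pairs correlated over 0.1 (median 0.06), and 10 of 24 libraries were closest to 1 of their own letter. With the letter as a replicate block 8 members were called in ventral males, 0 for the ventral sex difference, and 1 ratio in ventral females. With the animal as a block 18 members were called between regions. Over the named members and alternatives, 890 values kept their direction and side of the threshold, 182 kept the direction only and 3 reversed.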
